A study of Drosophila sechellia and Drosophila simulans with 8 samples.

Results

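Lipases of the gut are the subject of this account: 8 genes, CG6271, CG6277, CG6283, CG6295, CG6296, CG17191, CG17192 and mag, of which 7 had a probe set of their own, out of 11982 genes with such a probe set on the arrays. The probe sets were selected by their symbol, each carrying 1 of these symbols and no other in the annotation of the array. The genes were chosen from earlier results of these same arrays, with their log2 signal in the 4 groups known, so the differences given for them, and the counts of them past a threshold, are a description and no test of these genes.

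RNA from the bodies of adult females was hybridised to Affymetrix arrays with probe sets designed for Drosophila melanogaster, 2 arrays in each of 4 groups. The groups were Drosophila sechellia under choice, D. sechellia under no choice, D. simulans under choice and D. simulans under no choice, the choice concerning a blend of 2 fatty acids, octanoic and hexanoic acid. All flies were reared at 25 °C on a medium of agar, yeast and cornmeal. Fly age, strain, the length of the choice and what was offered beside the blend are not given in the sources used here. D. sechellia is a specialist of noni (Morinda citrifolia), a fruit that contains these acids, whereas D. simulans is a generalist. Arrays of a group carry only a number and no statement that their flies were separate, so p-values measure the spread between arrays, which may be technical.

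Dietary fat is taken up by insects after lipases secreted into the gut lumen have split triacylglycerol into fatty acids and smaller glycerides, which the enterocytes of the midgut absorb. CG6271, CG6277, CG6283, CG6295, CG6296, CG17191 and CG17192 encode lipases of the pancreatic type in D. melanogaster, where they are known mainly from sequence and from expression in the midgut. The gene mag, called magro, encodes an acid lipase related to mammalian gastric lipase, and in D. melanogaster it is a target of the nuclear receptor DHR96 and acts on triacylglycerol and sterol esters. Both species were read with D. melanogaster probes, so sequence divergence between the species may alter a lipase's signal with no difference in its RNA. In RNA from bodies, fewer gut cells and less RNA per gut cell cannot be told apart.

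The values are linear probe-set signals. On 7 arrays the median signal lay between 109 and 128.15, and the median of 27 Bacillus control probe sets, which match no fly RNA and are taken here as background, lay between 12.3 and 21.5. Array 1 of sechellia choice stood apart, with a median of 315.5 and a background of 126.4. Its Pearson r with the others was 0.674 to 0.720 over 13138 probe sets, whereas arrays of 1 group otherwise reached 0.963 to 0.969. Dim probe sets are therefore raised on that array, and results that its group enters are also given without it, as 7 arrays; sechellia choice then has array 2 only, taken to vary as much as the arrays of the other groups do. All groups share 1 estimate of spread, so that array enters the standard errors of every comparison with 8 arrays. The labelled tissue had its markers: the summed signal of 7 ovary genes was 12768 to 21910 on the 8 arrays, and that of 7 fat body genes 44274 to 86984. The only head marker measured, trp, lay below background on the 7 arrays and at 215.3 on array 1 of sechellia choice. The sum over 8 male reproductive genes was 340 to 648 on the 7 arrays, highest on array 2 of sechellia choice, and 3005 on array 1 of sechellia choice. On each array 6 or 7 of these 8 genes lay above background.

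CG6295 gave the widest spread between groups among the lipases well above background on every array. Its signal was 925.2 and 2093.2 on arrays 1 and 2 of sechellia choice and 259.8 and 234.3 in sechellia no choice, against 4533.9 and 4487.2 in simulans choice and 3781.7 and 3936.7 in simulans no choice. All 4 sechellia arrays lay below all 4 simulans arrays, and the sechellia no choice arrays lay lowest of all.

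CG17192 was measured above background in simulans alone. Its signal was 82.1 and 10.7 in sechellia choice and 7.0 and 7.0 in sechellia no choice, each below the background of its own array. In simulans choice it was 386.3 and 400.5, and in simulans no choice 329.3 and 312.2. The sechellia values therefore give only an upper limit on the signal in that species. They do not bound its RNA, since the probes were designed for D. melanogaster.

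CG6271 had a signal of 194.1 and 101.8 in sechellia choice and 136.3 and 45.6 in sechellia no choice. It was 469.0 and 630.7 in simulans choice and 582.5 and 641.6 in simulans no choice. The species did not overlap, and the choice and no choice arrays overlapped in both. A further probe set is annotated to both CG6271 and CG6277 and is outside the selection. It gave 64.3 and 41.7 in sechellia choice and 63.8 and 9.1 in sechellia no choice, against 354.4 and 396.6 in simulans choice and 320.1 and 266.1 in simulans no choice, and it cannot be assigned to either gene. CG6277 was on no other probe set, so no value is given for it.

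The signal of mag was 844.8 and 246.4 in sechellia choice and 184.6 and 225.7 in sechellia no choice. It was 969.5 and 833.8 in simulans choice and 1011.3 and 872.8 in simulans no choice. The high sechellia value is that of array 1 under choice, which reached the simulans range; the other 3 sechellia arrays did not.

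CG6283 and CG6296 differed less between the species. CG6283 had a signal of 1205.6 and 2279.8 in sechellia choice and 1355.6 and 1265.1 in sechellia no choice, against 2629.3 and 2578.2 in simulans choice and 2269.4 and 2145.8 in simulans no choice. Array 2 of sechellia choice lay above both simulans no choice arrays. CG6296 had 167.7 and 87.4 in sechellia choice and 53.7 and 111.5 in sechellia no choice, against 130.2 and 176.0 in simulans choice and 192.1 and 153.2 in simulans no choice. Under no choice the species did not overlap for it, and under choice they overlapped through array 1 of sechellia.

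CG17191 ran the other way at a very low level. Its signal was 89.0 and 37.0 in sechellia choice and 23.6 and 16.7 in sechellia no choice, against 13.7 and 3.4 in simulans choice and 6.0 and 14.2 in simulans no choice. Every simulans array lay below its background, and so did array 1 of sechellia choice. Its geometric mean over the 8 arrays was 16.4, under the limit of 49.9 below which the dimmest 30% of probe sets were left out of the fit, so it has no standard error here.

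**Figure D1:**
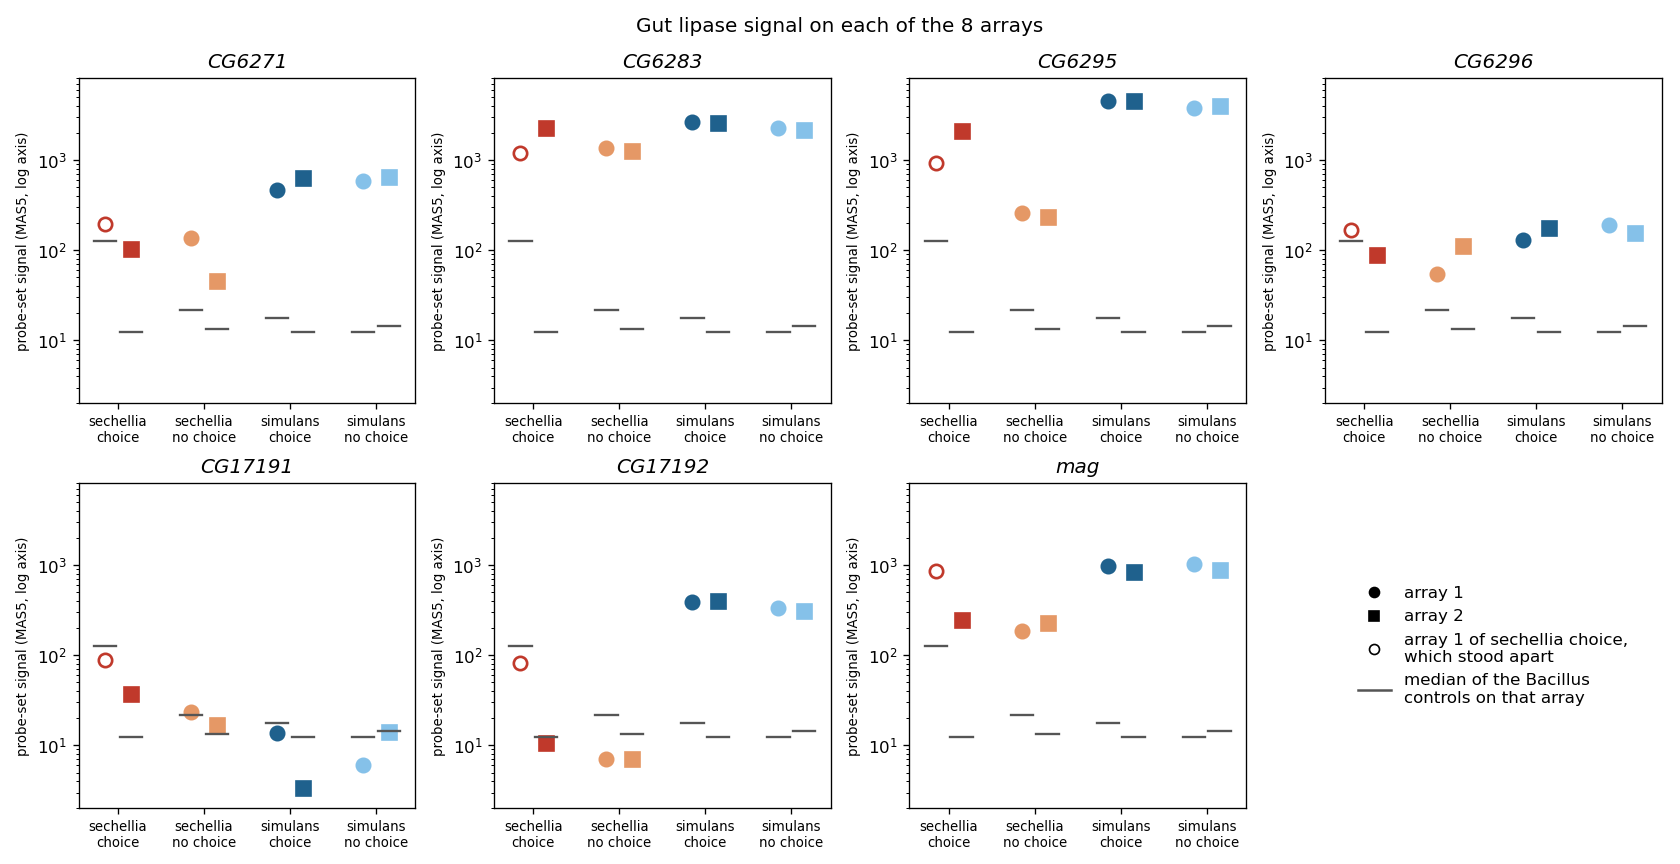
Probe-set signal (log axis) of the 7 gut lipases on each array of the 4 groups, with array 1 as circles and array 2 as squares. The open circle is array 1 of sechellia choice, and the grey dash is the median Bacillus control signal of the same array. The sechellia no choice arrays of CG6295 sit at 259.8 and 234.3, below every other array of that gene, and all 4 sechellia points of CG17192 lie under their dash.

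Under no choice, where neither group holds the array that stood apart, 6 of the 7 lipases had a lower signal in sechellia than in simulans and CG17191 a higher one. The groups overlapped for none of the 7, and 63.4% of all tested probe sets also had groups that did not overlap. Differences here are log2, sechellia minus simulans, with standard errors from a limma fit of all tested probe sets with 8 arrays and, after them, with 7 (n = 2 arrays per group here). CG6295 differed by -3.97 ± 0.33 (± 0.08 with 7 arrays), which is 15.6-fold lower in sechellia. CG6271 differed by -2.96 ± 0.55 (± 0.43), or 7.75-fold lower, and mag by -2.20 ± 0.49 (± 0.15), or 4.60-fold lower. The signal of CG17192 was at least 18.8-fold lower in sechellia, counting its sechellia values at the background of each array. The fit on the signals as deposited gave -5.52 ± 0.94 (± 0.40). The difference was smaller for CG6296, at -1.15 ± 0.56 (± 0.39), and for CG6283, at -0.75 ± 0.28 (± 0.07), or 1.69-fold lower. For CG17191 the sechellia signal was at least 1.49-fold higher than the simulans background.

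Of the 6 lipases tested, 3 were called lower at an adjusted p below 0.05 with 8 arrays, where 2.38% of all tested probe sets were called lower. These 3 were CG6271, CG6295 and CG17192. With 7 arrays 5 were called lower, where the share over all probe sets was 13.7%; mag and CG6283 were added and CG6296 was not called. The median difference of the 6 was -2.58, against 0.04 over all 13138 tested probe sets. CG17192 passed the filter on dim signal through its simulans arrays, so it had to differ. The count depended on the array left out: it was 1 without array 2 of sechellia no choice, without either simulans no choice array or without either simulans choice array, 2 without array 1 of sechellia no choice, and 5 without either array of sechellia choice.

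Under choice the same 6 lipases were lower in sechellia and CG17191 was higher, and the size rested on which sechellia array was used. CG6295 differed by -1.70 ± 0.33 with 8 arrays and by -1.11 ± 0.10 with 7, or 2.15-fold lower in sechellia with 7. CG6271 differed by -1.95 ± 0.55 and -2.42 ± 0.53. The signal of CG17192 was at least 9.98-fold lower with 8 arrays and at least 32.0-fold lower with 7. The difference of mag was -0.98 ± 0.49 with 8 arrays and -1.87 ± 0.18 with 7, since its array 1 signal was 844.8 and its array 2 signal 246.4.

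The same comparison was small for CG6283, at -0.65 ± 0.28 with 8 arrays and -0.19 ± 0.09 with 7. CG6296 gave -0.32 ± 0.56 and -0.79 ± 0.48, and on array 1 of sechellia alone it was 0.15, that is, not lower. CG17191 on array 2 of sechellia choice was at least 2.49-fold above the simulans background. The groups did not overlap for 5 of 7 lipases with 8 arrays, against 50.4% of all tested probe sets, and for 7 of 7 with 7 arrays, against 82.2%. With 8 arrays 1 of 6 was called lower, CG6295, where 2.25% of all probe sets were, and with 7 arrays 4 of 6, where 9.78% were. The 4 include CG17192, which passed the dim filter through its simulans arrays and so had to differ, and it enters the medians too. The median over the 6 was -1.34 with 8 arrays and -1.49 with 7, against 0.20 and 0.07 over all tested probe sets. Without array 2 of sechellia choice the count was also 4, and it was 0 without any one of the other 6 arrays.

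**Figure D2:**
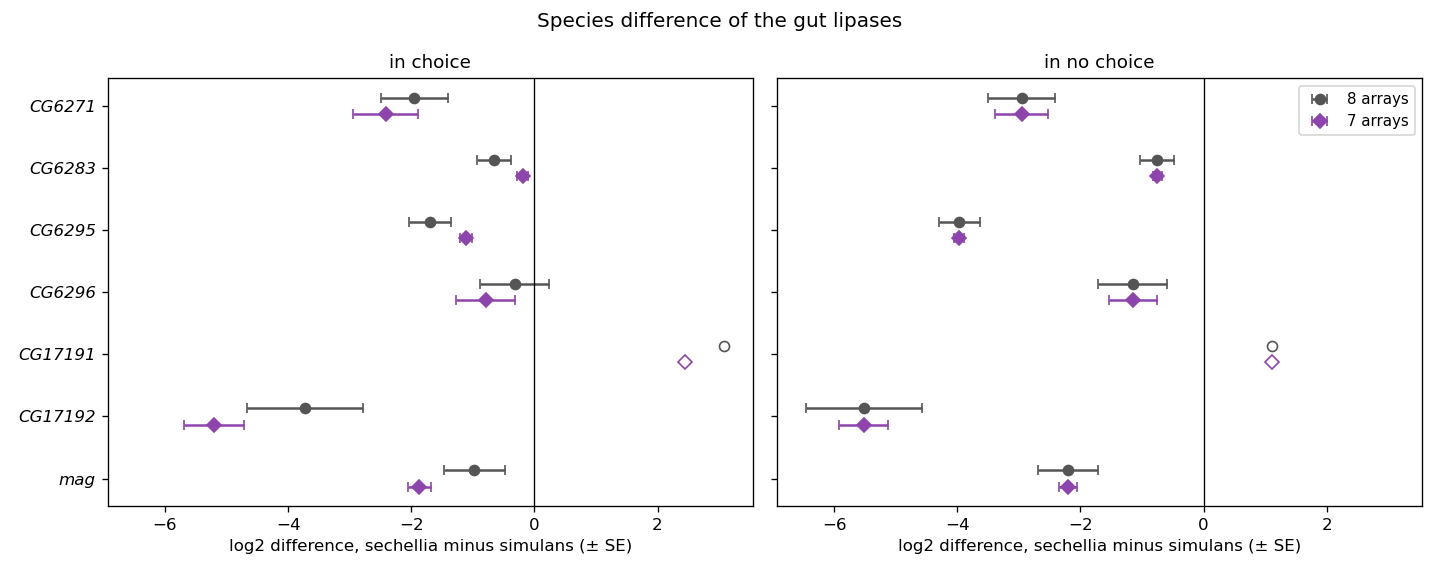
Log2 difference of each gut lipase, sechellia minus simulans, under choice (left) and no choice (right). Grey circles are the fit with 8 arrays and purple diamonds that with 7, bars are standard errors, and open symbols are group means of CG17191, which was not fitted. CG17192 is drawn as deposited, with sechellia signals under background. The distance of CG6295 from 0 is -3.97 under no choice and -1.70 (8 arrays) or -1.11 (7 arrays) under choice.

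The choice effect in sechellia was widest for CG6295. Its signal was 925.2 and 2093.2 under choice against 259.8 and 234.3 under no choice, so the groups did not overlap, and array 1 lay on the same side as array 2. Array 1 also read mag at 844.8, against 246.4 on array 2 and 184.6 and 225.7 under no choice. The side of array 1 is therefore no separate support for CG6295. The log2 difference of CG6295, choice minus no choice, was 2.50 ± 0.33 with 8 arrays and 3.09 ± 0.10 with 7, or 8.48-fold higher under choice on array 2. Array 2 nevertheless stayed below every simulans array. Median centring of the 7 arrays gave 2.95 and quantile normalisation 3.09.

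CG6283 was 0.80 ± 0.09 higher under choice with 7 arrays, or 1.74-fold, with 2279.8 on array 2 against 1355.6 and 1265.1. With 8 arrays it was 0.34 ± 0.28, because array 1 lay at 1205.6, below both no choice arrays. Centring the 8 arrays on their medians moved the median of all probe sets to -0.59 in this comparison, against 0.19 as deposited, and CG6283 to -0.44, still above that median. With the 7 arrays it stayed higher after median centring, at 0.66, and after quantile normalisation, at 0.86.

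For mag the difference was 1.16 ± 0.49 with 8 arrays and 0.27 ± 0.18 with 7. CG6271 gave 0.83 ± 0.55 and 0.37 ± 0.53, and CG6296 0.65 ± 0.56 and 0.18 ± 0.48. For these 3 genes the 8-array value was larger than that of array 2 alone. After quantile normalisation of the 8 arrays CG6271 was -0.06, CG6296 -0.26 and mag 1.03, where the median of all probe sets was -0.08; after median centring CG6296 was -0.13, above the median of -0.59. CG17192 lay below background in both sechellia groups, so no fold is given. CG17191 on array 2 was 37.0, against 23.6 and 16.7 under no choice, with backgrounds of 12.3, 21.5 and 13.5.

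The groups did not overlap for 4 of 7 lipases with 8 arrays and 5 of 7 with 7, against 44.9% and 75% of all tested probe sets. With 8 arrays limma called 0 of the 6 tested lipases in this comparison (2 at an unadjusted p below 0.05), where 0.0533% of all probe sets were called, all of them higher. With 7 arrays it called 2 of 6 higher, CG6295 and CG6283, where 1.58% of all were called higher and 2.49% in either direction. The median over the 6 was 0.997 with 8 arrays and 0.49 with 7, against 0.19 and 0.04 over all tested probe sets. Without array 2 of sechellia choice the count was 3, and it was 0 without any one of the 6 arrays of the other groups.

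In simulans the lipases differed little with choice. CG6295 had 4533.9 and 4487.2 under choice against 3781.7 and 3936.7 under no choice, a log2 difference of 0.23 ± 0.33 with 8 arrays and ± 0.08 with 7. CG6283 gave 0.24 ± 0.28 (± 0.07 with 7) and CG17192 0.29 ± 0.94 (± 0.40 with 7). For these 3 of 7 genes both choice arrays lay above both no choice arrays, and 47.2% of all tested probe sets had groups that did not overlap. The groups overlapped for CG6271 (-0.17 ± 0.55), CG6296 (-0.18 ± 0.56) and mag (-0.06 ± 0.49). Limma called 0 of 6 with 8 arrays and 0 with 7 (0 and 2 at an unadjusted p below 0.05), where 0.00761% and 0.274% of all probe sets were called. CG17191 lay below background in both simulans groups.

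The difference between the species in the choice effect, that of sechellia minus that of simulans, was 2.27 ± 0.47 for CG6295 with 8 arrays and 2.86 ± 0.13 with 7. For CG6283 it was 0.10 ± 0.39 and 0.56 ± 0.12. The values with 7 arrays were 0.54 ± 0.68 for CG6271, 0.36 ± 0.62 for CG6296 and 0.34 ± 0.24 for mag. None of the 6 was called with 8 arrays (limma, 1 at an unadjusted p below 0.05), where 0.0152% of all probe sets were called higher. With 7 arrays 2 were, CG6295 and CG6283, where 1.34% were. This contrast shares its arrays with the comparisons above.

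**Figure D3:**
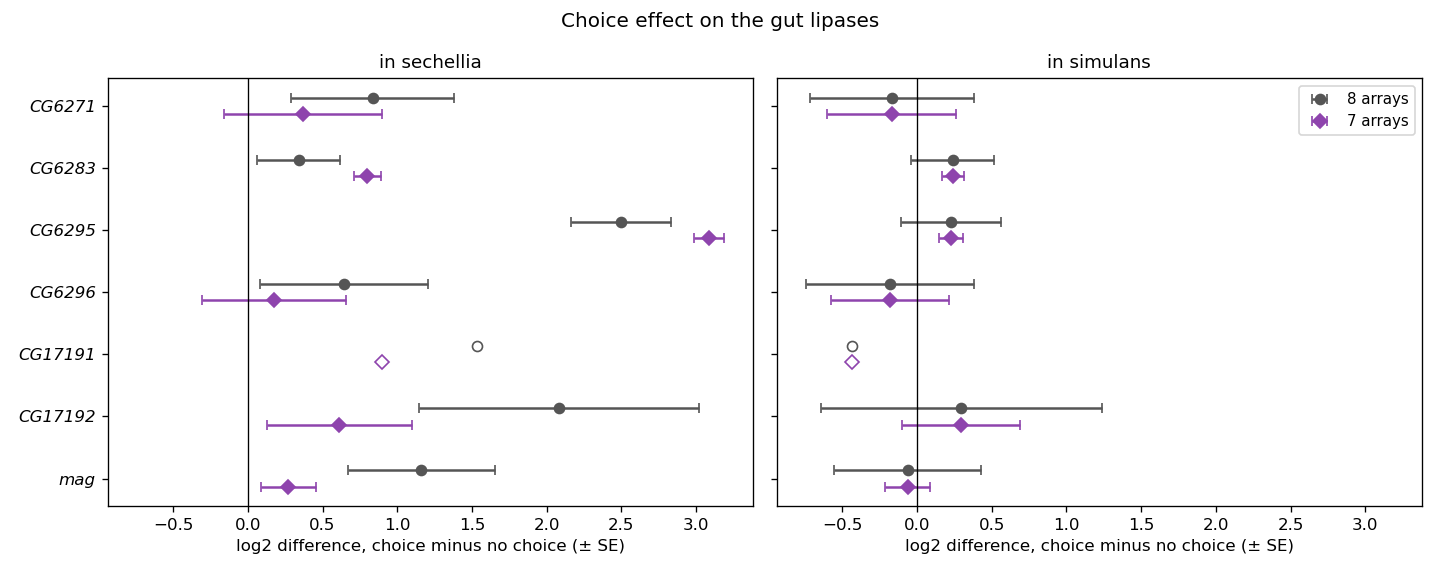
Log2 difference of each gut lipase, choice minus no choice, in sechellia (left) and simulans (right). Grey circles are the fit with 8 arrays, purple diamonds that with 7, bars are standard errors, and open symbols are group means of CG17191. CG6295 lies at 2.50 (8 arrays) and 3.09 (7 arrays) in sechellia and at 0.23 in simulans.

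Across the 7 arrays, 6 of the lipases varied together and CG17191 against them. Pearson r of log2 signal was 0.99 between mag and CG17192, 0.97 between CG6295 and CG6283 and 0.95 between CG6271 and CG17192. The lowest r among the 6 was 0.63, between CG6296 and CG6283, and CG17191 had r between -0.78 and -0.43 with them. These are descriptions over 7 arrays that share 4 groups and a species difference. CG17192 lay below background on every sechellia array and CG17191 on every simulans array. Each r with either gene therefore rests in part on signals under background.

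Among 622 other probe sets with an SD of at least 1 over the 7 arrays, the profile most like that of CG6295 was Jon25Bii, a Jonah serine protease of the midgut (r = 0.993), followed by the chorion gene Cp16 (0.991). For mag these were BomBc3, a Bomanin peptide gene of the immune response (0.999), and CG18180 (0.997). CG6271 was most like Jon65Aii, another Jonah protease (0.982), and PEK, a kinase of the unfolded protein response (0.982). CG17192 was most like Drsl4, of the drosomycin family (0.999), and Lerp, a lysosomal enzyme receptor (0.999). For CG6283 the closest were Cph (0.974) and Nepl14, of the neprilysin-like proteases (0.965), and for CG6296 they were CG4962 (0.959) and CG3397 (0.956). For CG17191 they were CG16995 (0.930) and CG31089, of the acid lipases (0.903). The 2 closest of 622 were picked over 7 arrays that share 4 groups, so a high r is a description only. The profiles of CG17192 and CG17191 also include signals under background.

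Related genes came from lists of the lipase families and of genes around them. Of 15 tested genes of the pancreatic-type family outside the selection, 1 was called under no choice with 8 arrays, where 4.22% of all probe sets were, and it was higher: CG10116, with 875.6 and 865.5 in sechellia against 485.6 and 505.6 in simulans (0.81 ± 0.18, adjusted p = 0.045). With 7 arrays, where 28.2% of all were called, 1 was higher and 4 were lower. The 4 are CG10163 (-2.97 ± 0.19, adjusted p = 1.1e-05), CG18258 (-1.46 ± 0.47, adjusted p = 0.048), CG4267 (-0.70 ± 0.11, adjusted p = 0.0015) and CG5162 (-0.57 ± 0.09, adjusted p = 0.0023), named after their values were seen. The median of the 15 was 0.00.

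Under no choice 4.22% of all tested probe sets were called with 8 arrays and 28.2% with 7. Of 15 tested acid lipases other than mag, limma called 1 with 8 arrays under no choice, which is close to the share of all probe sets. It was CG8093, higher at 839.1 and 588.6 in sechellia against 251.3 and 245.7 in simulans (1.50 ± 0.23, adjusted p = 0.012). With 7 arrays 2 were higher, CG8093 and CG31089, and none lower. Under choice CG31089 and CG8093 were called with 8 and with 7 arrays, where 4.14% and 19.4% of all probe sets were called. CG31089 had 885.8 and 298.4 in sechellia against 80.4 and 41.8 in simulans, a difference of 3.15 ± 0.59 (adjusted p = 0.031) with 8 arrays and 2.36 ± 0.45 with 7. The median of the list under no choice was 0.05.

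Further lists covered lipid uptake, storage and regulation, to be read against the same shares of all probe sets called under no choice, 4.22% with 8 arrays and 28.2% with 7. Of 17 tested genes of sterol and lipid uptake and export, 2 were higher in sechellia under no choice and none lower; with 7 arrays 3 were higher and 4 lower. Npc2d, of a family of sterol-binding proteins, had 989.4 and 962.8 in sechellia against 133.3 and 122.1 in simulans (2.94 ± 0.21, adjusted p = 0.00036). Fatp3, of the fatty acid transport proteins, had 1506.3 and 1566.5 against 956.3 and 906.3 (0.72 ± 0.16, adjusted p = 0.044). Of 10 genes of intracellular lipases and fat droplets limma called 0 with 8 arrays (1 at an unadjusted p below 0.05), and 4 higher and 1 lower with 7. Of 7 regulators of gut lipid genes it called 0 with 8 (2 at an unadjusted p below 0.05), and 1 higher and 2 lower with 7. Hr96, which encodes DHR96, gave 0.06 ± 0.32 with 8 arrays.

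Genes of the midgut marker list differed between the species in both directions. The list held 12 genes, of which 9 had a probe set of their own, and all 9 were above background on 7 arrays and 8 of them on array 1 of sechellia choice. Their summed signal was 7866 and 11784 in sechellia choice and 10166 and 10856 in sechellia no choice, against 9727 and 9598 in simulans choice and 8456 and 8649 in simulans no choice. Under no choice 3 of the 9 were called higher in sechellia with 8 arrays and none lower, and 4 higher and 1 lower with 7, against 4.22% and 28.2% of all probe sets in either direction. Those called with 8 were mesh (1.55 ± 0.23, adjusted p = 0.011) and Ssk (1.38 ± 0.22, adjusted p = 0.015), of the smooth septate junction, and mex1 (0.88 ± 0.19, adjusted p = 0.043). The 1 called lower with 7 was cad, a transcription factor gene (-0.31 ± 0.07, adjusted p = 0.015), named after its values were seen, which is the largest term of most of these sums. Its signal was 1420.6 and 3197.7 in sechellia choice and 3612.9 and 3985.8 in sechellia no choice, against 5168.7 and 5556.5 in simulans choice and 4621.7 and 4797.5 in simulans no choice, so every sechellia array lay below every simulans array. Bodies were read and not guts alone, so the signal of cad cannot be assigned to the midgut. The summed ovary signal under no choice was lower in sechellia, at 17238 and 18740, against 21910 and 20932 in simulans. Most of each sum was osk, at 11138.4 and 12575.3 in sechellia against 14220.4 and 13760.5 in simulans. The ovary list was mixed: osk, otu, grk and aub were lower on both sechellia arrays, and vas, bam and bcd were higher. Vha100-4, a proton pump subunit gene, gave -0.24 ± 0.17 with 7 arrays and was not called. The part of gut content in the lipase differences was not tested.

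**Figure D4:**
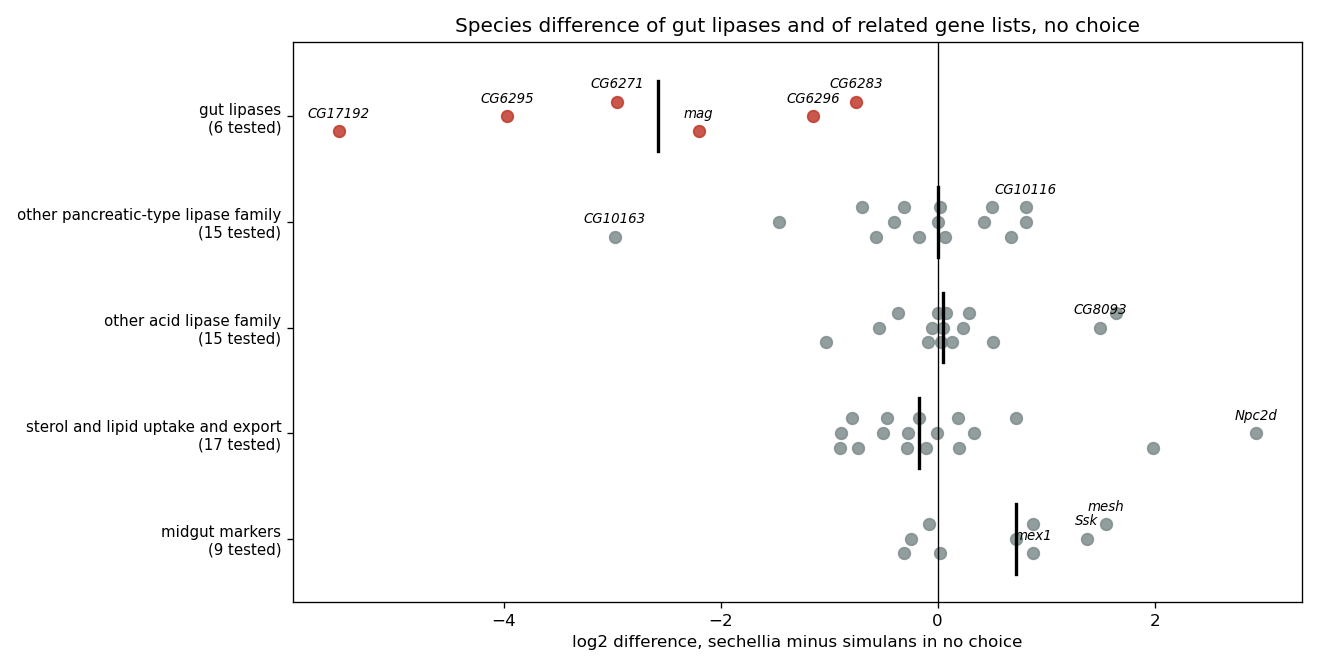
Log2 difference, sechellia minus simulans under no choice, of each tested gene in 5 lists, with the gut lipases in red and the list median as a black bar. CG17192 is drawn as deposited. The 6 gut lipases, chosen with these values known, lie between -5.52 and -0.75 with a median of -2.58. The medians of the other pancreatic-type and acid lipases are 0.00 and 0.05, and that of the midgut markers is 0.73. CG10163 and CG18258, of the other pancreatic-type lipases, lie within the range of the gut lipases.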

How the data were processed

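The authors deposited linear probe-set intensity for 8 arrays, from MAS5, as the submitters' processing notes name it without version or settings. The mean of each array with 2% of values trimmed at each end was 499.4 to 499.7, so intensities were taken to log2 with no further scaling. Of 18952 probe sets, 183 controls and the 30% of the others with the lowest mean log2 signal were left out, and 13138 were tested. A mean for each of the 4 groups was estimated by limma 3.58.1 (R 4.3.3; lmFit and moderated by eBayes along the intensity trend), with 4 residual degrees of freedom with 8 arrays and 3 with 7. Benjamini-Hochberg adjustment ran over all 13138, and an adjusted p below 0.05 is called; the fit was tested on simulated data.

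The members and gene lists were chosen with earlier results of these data known, as was the fit with 7 arrays. A list gene stands for its brightest probe set. Named beside the lipases are, per list and comparison, up to 4 genes with the largest difference among those called (under choice, with 8 and with 7 arrays), and per lipase the 2 most similar profiles. Outside this rule, CG10163, CG18258, CG4267, CG5162, cad and Lsd-1 were named after their values were seen. Hr96 and some marker genes, such as Vha100-4, are also named outside it. A signal below the median of 27 Bacillus controls on every array of a group is a bound. Replicate numbers did not pair the arrays: deviations of same-numbered arrays correlated at -0.12 to 0.05. The gene table supplied for D. sechellia held none of the annotation's 12551 gene identifiers, and positions are not given, and no sequence was used here. Arrays were few, which limits precision. The alternatives were other scalings, no dim filter, no trend, only the arrays compared, a replicate block, signals raised to background and each array left out; 2 scalings of the 7 arrays were added after seeing the data.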

Additional observations from a re-analysis of the deposited data

Results flagged for a closer look

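The choice effect on CG6295 differed between the species with 7 arrays, by log2 2.86 (sechellia minus simulans), past the threshold of the fit across all probe sets. It was 2.27 with 8 arrays, not past it. The choice effect on CG6283 differed by 0.56 with 7 arrays, past the threshold, and by 0.10 with 8 arrays, not past it. With 7 arrays the sechellia choice group is array 2 alone. For CG6283 the difference became -0.62 after median centring of the 8 arrays, where the median of all probe sets was -0.59. Without array 2 of sechellia choice it was -0.36. The genes were chosen with their signal in all 4 groups known, so all these values are a description and no test of these genes.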

How the results depend on the processing

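Leaving out 1 array at a time gave 107 to 3705 called probe sets for the species under no choice (554 with all), 50 to 8980 under choice (544), 1 to 8671 for choice in sechellia (7), 0 to 36 for choice in simulans (1) and 0 to 7300 for the difference of choice effects (2). The highest of each came without array 1 or array 2 of sechellia choice. For the gut lipases these ranges were 1 to 5 (3 with all), 0 to 4 (1), 0 to 3 (0), 0 to 0 (0) and 0 to 4 (0). Median centring gave 117, 103, 1, 0 and 0 probe sets in the same order and 2 lipases for the species under choice. Quantile normalisation gave 20 for choice in sechellia, 0 for choice in simulans and 3 lipases for the species under choice. Without the dim filter choice in simulans gave 2, and 1 lipase, CG6295, was called for choice in sechellia. Without an intensity trend the counts were 236, 138, 0, 0 and 0, with 0 lipases for the species under choice (3 at an unadjusted p below 0.05). Fits of only the arrays compared gave 3487, 19, 0 and 16, with 5 lipases for the species under no choice and 0 under choice (3 at an unadjusted p below 0.05); the difference of choice effects cannot be fitted so. With the replicate number as a block, the species under choice gave 313, choice in sechellia 4, choice in simulans 0 and the difference of choice effects 0. Lipase calls did not move under the block. Raising signals to background gave 0 for the difference of choice effects. At an unadjusted p below 0.05, the settings other than leaving out an array that gave 0 probe sets in limma had 193 to 1370. The cause of these moves was not tested. Median centring moved the median of all probe sets for choice in sechellia to -0.59, against 0.19 as deposited. Of 504 values of the 30 lipase differences under the alternatives, 491 kept the sign of the value given with all arrays. No difference called with all arrays changed sign. CG6283 did change sign for choice in sechellia. It was 0.80 with 7 arrays, -0.44 after median centring of all arrays and -0.12 without array 2 of sechellia choice. Its difference of choice effects was 0.56 with 7 arrays and, in the same alternatives, -0.62 and -0.36. Having 2 arrays a group and signals near background limit CG17191, CG17192 and CG6296.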

Other observations

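CG10163 is a pancreatic-type lipase gene outside the selection and was picked here after its values were seen. Its log2 difference, choice minus no choice in sechellia, was 1.85 ± 0.23 with 7 arrays and 0.56 ± 0.71 with 8. The median of the 15 tested genes of its list was 0.11 with 7 arrays and 0.56 with 8. With 7 arrays sechellia choice is array 2 alone. The difference of the choice effects of CG10163 between the species was 2.42 ± 0.30 with 7 arrays and 1.13 with 8. Lsd-1, a gene of the lipid droplet surface likewise picked after its values were seen, was the 1 called of 10 tested genes of intracellular lipases and fat droplets, whose median was -0.05, where 1.58% of all probe sets were called higher. It was called higher under choice in sechellia with 7 arrays (0.95 ± 0.09, adjusted p = 0.001; 0.60 with 8 arrays).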
